A study of Mus musculus with 45 samples.

Results

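Proximal chromosome 6 of the mouse was followed in 45 mammary tumors by array comparative genomic hybridization (CGH), with the Met amplicon left out. The stretch was taken as every non-control probe of chromosome 6 starting below 75 Mb of mm8, other than those in a window of 2 Mb around Met and those named for Braf. This left 1021 of the 42235 probes on the autosomes and chromosome X, against 34 in the Met window, 7 of Braf and 1330 on the distal part of the chromosome. The probes ran from position 3274714 to 73398870, with a median spacing of 28010 bp and a largest gap of 2.941 Mb. They carried 674 names, of which 496 were gene or transcript names and 178 were positions only. No measured value entered the choice of probes, but the stretch was picked with earlier results of these data known.

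The tumors came from 8 genetically engineered models, and DNA of each was hybridized on 1 array against reference DNA. The labels give the models as BRCA1fl/fl;p53+/-;MMTV-cre (named BRCA1-/-;p53+/- or Brca1-deleted here, n = 5), MMTV-c-Myc (MMTV-Myc, n = 5), C3(1)/SV40 T/t-antigens (C3(1)-Tag, n = 5), MMTV-Her2/neu (n = 5), MMTV-H-Ras (MMTV-HRas, n = 5), p53fl/fl;MMTV-cre transplant (p53-/-, n = 6), MMTV-PyMT (n = 9) and MMTV-Wnt1 (n = 5). The MMTV promoter drives a transgene or Cre mainly in mammary epithelium, so that in both Cre models the floxed gene is deleted in those cells and not in the whole animal. The first model also carries 1 intact p53 allele, and the p53-/- tumors grew from transplanted tissue. Females were the source of the tumors, and no ages are given in the sources used here. The labels name the reference both as pooled spleen and as normal mammary gland, and the methods name spleen. The titles carry a different code for each tumor, but no label states that tumors of a model came from separate animals, so the p-values measure the spread between these tumors.

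The deposited ratio is Cy5 over Cy3, and the labels give Cy5 to the tumor. The values run the other way, and every log2 ratio here is Cy3 over Cy5, the direction of the authors' own table of altered intervals, which opposes the labels. With this direction a Brca1 probe on chromosome 11 (start 101340828) stood at -3.97 ± 1.40 (SD, n = 5) in the model that deletes the gene. Each array was centred on its autosomal median, so that 0 is the level of most of that tumor's genome. A log2 ratio measures the mean copy number over all cells of a sample, and the share of cells that carry a gain and the copies per carrying cell cannot be told apart.

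Median signals were 2.09 to 14.4 times background for Cy5 and 3.67 to 16.7 times for Cy3, and the SD of a single probe was 0.158 to 0.476 over the arrays. Some arrays resembled arrays of another label. Over 2059 genome bins, C3(1)-Tag tumor 3 correlated with MMTV-Her2/neu tumor 2 (r = 0.960), and C3(1)-Tag tumor 4 with MMTV-Her2/neu tumor 3 (r = 0.927). Over the probes of proximal chromosome 6 alone, the closest pairs were p53-/- tumors 2 and 3 (r = 0.932) and MMTV-PyMT tumors 8 and 9 (r = 0.900). Pairs of different models were MMTV-Her2/neu tumor 4 with MMTV-HRas tumor 1 (r = 0.856 there and 0.693 over all autosomal probes) and MMTV-PyMT tumor 9 with MMTV-Wnt1 tumor 5 (r = 0.794 and 0.752). These are correlations across bins or probes, which are not independent. The Wnt1 probe was raised at 1.5, 1.33, 1.35 and 1.07 in MMTV-Wnt1 tumors 2 to 5 but stood at 0.07 in the array labelled MMTV-Wnt1 tumor 1. The tests below use all 45 arrays, and the mean levels were also computed without the 4 C3(1)-Tag and MMTV-Her2/neu arrays of the first 2 pairs. The arrays of the other pairs of different models stayed in that check.

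Mouse chromosome 6 carries on its proximal part the genes of a large block of human chromosome 7. Among them are the receptor tyrosine kinase gene Met, the histone methyltransferase gene Ezh2, the Hedgehog pathway gene Smo and the Hoxa cluster of homeobox genes. Copy number of such a stretch can change as a whole, when the chromosome is gained, or locally, when a short segment is amplified to many copies. Cells without Brca1 repair broken DNA poorly, and cells without p53 tolerate such damage, so tumors of both kinds are known for many rearrangements. Among the genes with no protein on this stretch are several microRNAs, which pair with messenger RNAs mainly through a seed at bases 2 to 8.

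The RefSeq tables place 18 microRNA genes between probes of the stretch, with 31 mature forms and 30 different seeds. The array measures DNA and not the microRNAs, so the copy number of each locus was taken from the probes of the flanking genes. The following mature forms belong to the loci that lay in gains or amplified segments described below, and the capitals mark the seed. The sequences are those of RefSeq with the table's build GRCm38.p6, 5′ to 3′.
mmu-miR-183-5p: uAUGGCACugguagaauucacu
mmu-miR-96-5p: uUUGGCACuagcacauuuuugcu
mmu-miR-182-5p: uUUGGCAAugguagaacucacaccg
mmu-miR-335-5p: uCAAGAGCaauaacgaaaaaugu
mmu-miR-29a-3p: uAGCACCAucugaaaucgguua
mmu-miR-29b-3p: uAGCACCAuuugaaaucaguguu
mmu-miR-490-3p: cAACCUGGaggacuccaugcug
mmu-miR-6370: gCAGGAACagcaaaggggaag
mmu-miR-148a-3p: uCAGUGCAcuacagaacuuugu
mmu-miR-196b-5p: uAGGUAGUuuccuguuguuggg
Only miR-29a-3p and miR-29b-3p of the 31 mature forms shared a seed, AGCACCA.

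Gain of proximal chromosome 6 was found in 15 of 45 tumors, 33.3% (Clopper-Pearson 95% interval 20 to 49.0%), and loss in 0. A tumor counted as gained where at least 50% of the probes lay in segments with a mean log2 ratio of at least 0.2. The gains were in 4 of 5 BRCA1-/-;p53+/- tumors, 4 of 5 MMTV-HRas tumors (28.4 to 99.5%), 4 of 6 p53-/- tumors (22.3 to 95.7%) and 1 each of the C3(1)-Tag, MMTV-Her2/neu and MMTV-PyMT tumors. None of 5 MMTV-Myc or 5 MMTV-Wnt1 tumors was gained, which with 5 tumors allows a share of up to 52.2%. By the same rule, distal chromosome 6 was gained in 12 tumors and lost in 3, and among whole autosomes chromosome 6 was gained in 13 tumors, chromosome 15 in 12 and chromosome 17 in 11. By the authors' intervals 17 tumors passed, the same 15 with BRCA1-/-;p53+/- tumor 5 and C3(1)-Tag tumor 3 besides.

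**Figure D1:**
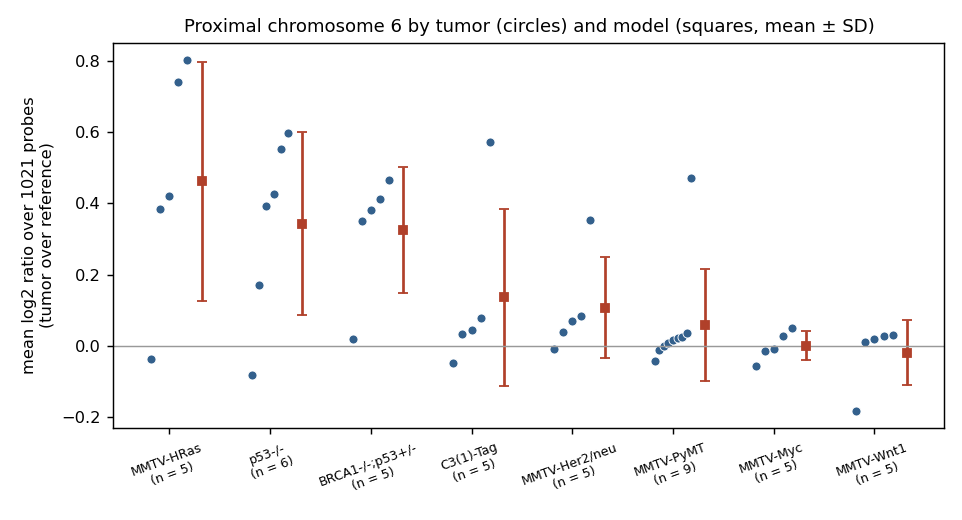
Mean log2 ratio of proximal chromosome 6 in each of 45 tumors by model, with the model mean and SD. The MMTV-HRas mean is the highest at 0.46, and the MMTV-Myc tumors lie between -0.06 and 0.05.

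The mean level over the 1021 probes was highest in MMTV-HRas tumors. Tumors 1 to 5 of that model stood at 0.39, 0.74, -0.04, 0.80 and 0.42. Only tumor 3 lay near 0. The 5 averaged 0.46 ± 0.34 (SD), 0.33 above the mean of the other 40 tumors (two-sided exact permutation test, p = 0.00464, adjusted p = 0.0371 over 8 models). The ranges overlapped. This was the only one of the 8 models that passed. Without MMTV-HRas tumor 1, 2, 4 or 5 it no longer did, and the difference without tumor 4 was 0.24. It also failed with another centring (0.37, adjusted p = 0.0558), without the 4 C3(1)-Tag and MMTV-Her2/neu arrays with like profiles (0.32, adjusted p = 0.0551) and with another background correction (0.17, adjusted p = 0.224).

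The p53-/- tumors 1 to 6 stood at 0.60, 0.43, 0.39, 0.17, -0.08 and 0.55, a mean of 0.34 ± 0.26. The BRCA1-/-;p53+/- tumors 1 to 5 stood at 0.35, 0.38, 0.47, 0.41 and 0.02, a mean of 0.33 ± 0.18. These means were 0.20 (p = 0.0593, adjusted p = 0.158) and 0.18 (p = 0.142, adjusted p = 0.189) above the other tumors by the same exact test, and neither passed. In each of these models most tumors were raised and 1 lay near 0. Without p53-/- tumor 5 the difference of that model rose to 0.28 and passed (exact permutation test, adjusted p = 0.0489).

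In the remaining models single tumors stood apart. The C3(1)-Tag tumors stood at 0.05, 0.03, 0.08, -0.05 and 0.57, and the MMTV-Her2/neu tumors at 0.35, 0.07, -0.01, 0.08 and 0.04. The 9 MMTV-PyMT tumors had a lowest mean of -0.04, a median of 0.02 and a highest of 0.47. In these 3 models the single high tumor held the model's only gain. The MMTV-Myc tumors stood at -0.06, -0.01, 0.03, 0.05 and -0.01, and the MMTV-Wnt1 tumors at -0.18, 0.01, 0.03, 0.02 and 0.03. Of the 28 pairs of models, 0 differed after adjustment (exact permutation tests, lowest adjusted p = 0.113). Arrays of MMTV-HRas, p53-/- and BRCA1-/-;p53+/- tumors shared no slide with another model, so slide and model cannot be told apart for them. For C3(1)-Tag, with 2 arrays on shared slides, MMTV-Her2/neu, MMTV-Myc and MMTV-PyMT tumors the comparison within shared slides gave differences between -0.10 and 0.10 (lowest adjusted p = 0.274, exact permutation test). MMTV-Wnt1 had 1 array among the 3 of 1 shared slide, where the exact test cannot give a p below 0.333 and so tests nothing about the model.

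The gain was part of a gain of the whole chromosome in MMTV-HRas tumors but not in every model. Proximal minus distal chromosome 6 was 0.02 ± 0.01 (SD, n = 5) in MMTV-HRas tumors, all 5 between 0.01 and 0.04. In BRCA1-/-;p53+/- tumors 1 and 3 it was 0.37 and 0.71. The gain of tumor 1 ended at 65371028 and that of tumor 3 at 65556735, and beyond these points the segments lay at -0.04 and -0.31. That model averaged 0.19 ± 0.35, 0.19 above the other tumors (p = 0.0456, adjusted p = 0.182, exact permutation test). Without tumor 3 the difference was 0.0631 (adjusted p = 0.839 in the same exact test). In p53-/- tumors it was 0.13 ± 0.08 (n = 6, adjusted p = 0.406 in the same test).

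The opposite was seen where distal chromosome 6 alone was raised. Proximal minus distal was -0.62 in C3(1)-Tag tumor 4, -0.61 in MMTV-Her2/neu tumor 3 and -0.40 in MMTV-Her2/neu tumor 5. The first 2 of these arrays are a pair with like profiles. MMTV-Her2/neu tumors averaged -0.20 ± 0.29, 0.24 below the others (p = 0.0148, adjusted p = 0.119, exact permutation test), and no model passed the adjustment. Without C3(1)-Tag tumor 4 the MMTV-Her2/neu difference passed (-0.26, adjusted p = 0.0190).

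**Figure D2:**
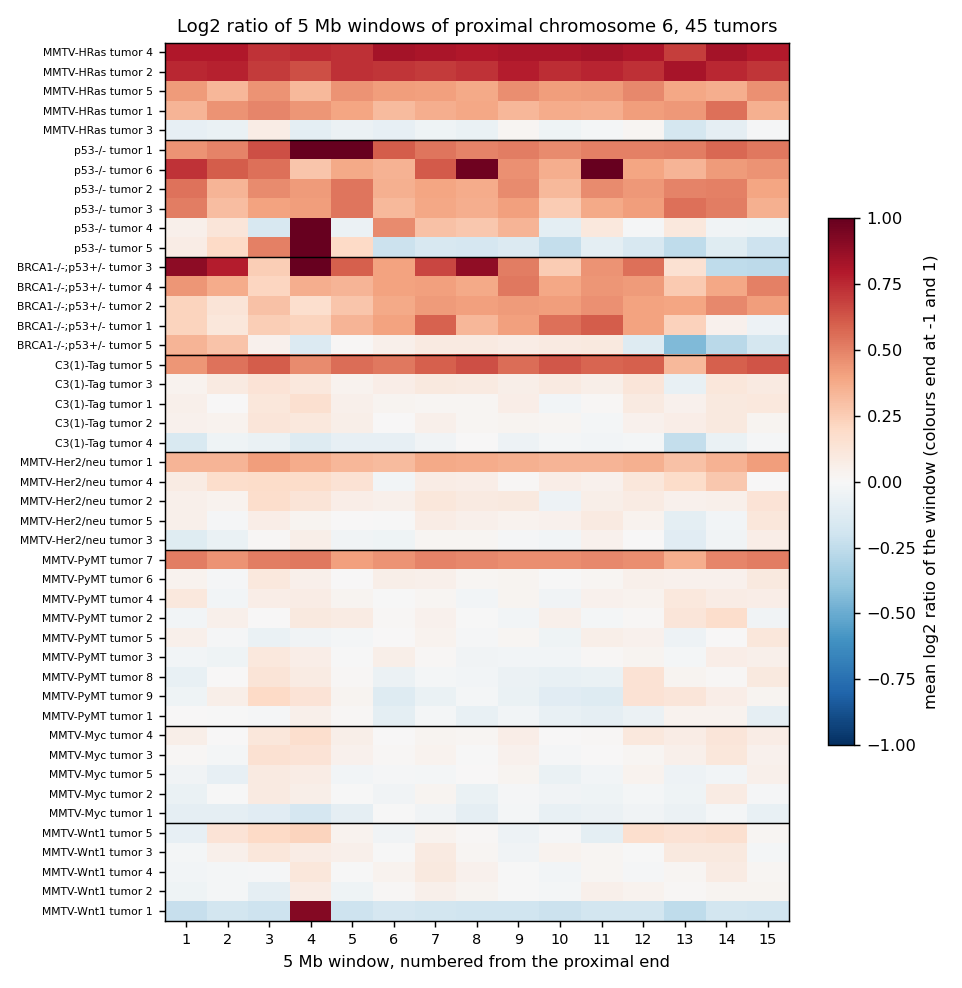
Mean log2 ratio in 5 Mb windows of proximal chromosome 6 (columns, numbered from the proximal end) in each of 45 tumors (rows, by model), with the Met window left out and colours ending at -1 and 1. Rows of the 4 gained MMTV-HRas tumors vary by 0.14 to 0.24 along the chromosome, those of p53-/- tumors 2 and 3 by 0.21 and 0.29, and that of p53-/- tumor 1 by 1.37.

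The evenness of the gain differed between tumors. Over 5 Mb windows, the 4 gained MMTV-HRas tumors had a range from lowest to highest window of 0.14 to 0.24. MMTV-PyMT tumor 7 and MMTV-Her2/neu tumor 1, also gained, had ranges of 0.16 and 0.13, and C3(1)-Tag tumor 5 had one of 0.32. The range was 0.21 and 0.29 in p53-/- tumors 2 and 3, against 1.37 in tumor 1 and 0.73 in tumor 6. In Brca1-deleted tumors 1, 2 and 4 it was 0.66, 0.35 and 0.31. The widest ranges, 4.81 in p53-/- tumor 4 and 3.15 in Brca1-deleted tumor 3, rested on the window that holds the amplified flanks of Met, which averaged 4.65 and 2.88.

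In 1 Mb bins, 45 of the 60 bins of the stretch were higher in MMTV-HRas tumors than in the mean of the other 7 models (limma, adjusted p under 0.05 over all 2059 bins), against 13.9% of all bins. At an unadjusted p under 0.05, 55 were higher, against 19.7% of all bins. The median difference was 0.35. In limma 0 bins passed as lower at either p, and the lowest difference was -0.06. The bin with the largest difference was 9 to 10 Mb, with 3 probes, at 0.63 ± 0.30 (SD, n = 5), and a difference of 0.51 (SE 0.16, adjusted p = 0.0212). Its probe with the largest difference was named for the transcript AK047325. The count rested on single tumors: without MMTV-HRas tumor 2 it was 0, without tumor 4 it was 4 and without tumor 5 it was 24. With normexp background correction it was 0.

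**Figure D3:**
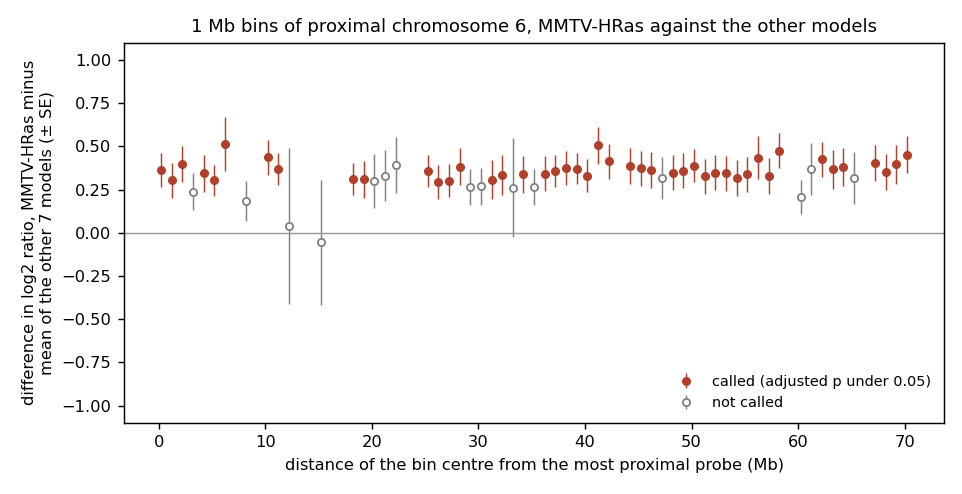
Difference in log2 ratio between MMTV-HRas tumors and the mean of the other 7 models in each of 60 bins of 1 Mb, by distance of the bin from the most proximal probe in Mb, with the SE as bars. The 45 filled bins passed the adjusted test, and the median difference was 0.35.

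In p53-/- tumors 2 bins were higher, against 2.33% of all bins higher in that model. The bin at 11 to 12 Mb stood at 0.64 ± 0.43 (n = 6), a difference of 0.43 (SE 0.11, adjusted p = 0.0103 in limma). The 6 tumors lay between 0.24 and 1.30, with a median of 0.58, and the tumors of the other models between -0.18 and 0.78. The bin at 18 to 19 Mb stood at 2.50 ± 2.23, a difference of 2.24 (adjusted p = 3.01e-05), and its 4 probes are the distal flank of the Met amplicon. In BRCA1-/-;p53+/- tumors 1 bin was higher, at 55 to 56 Mb, which holds the water channel gene Aqp1 (0.48 ± 0.21, difference 0.36, SE 0.10, adjusted p = 0.0457), against 0.389% of all bins. Its highest tumor stood at 0.74, below the 0.88 of the highest tumor of other models. At an unadjusted p under 0.05, 11 bins were higher in p53-/- tumors, against 8.94% of all bins. In Brca1-deleted tumors 21 were higher and 2 lower, against 17.6% of all bins in either direction.

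In the other 5 models 0 bins of the stretch passed in limma. Beside this stand 0% of all bins in C3(1)-Tag tumors, 0% in MMTV-Her2/neu tumors, 0.437% in MMTV-Myc, 2.72% in MMTV-PyMT and 0.0486% in MMTV-Wnt1 tumors. At an unadjusted p under 0.05, 25 bins were lower in MMTV-Wnt1 tumors (2.28% of all bins were), 17 in MMTV-PyMT (4.23%) and 15 in MMTV-Myc tumors (1.46%). In C3(1)-Tag and MMTV-Her2/neu tumors 0 passed in limma at that p in either direction, against 4.52% and 22.3% of all bins. Each model was compared with the mean of the rest, so these comparisons share their tumors.

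Of 66 genes listed by role, 60 had a probe in the stretch and 59 a tested bin, and 51 of the 59 lay in bins higher in MMTV-HRas tumors. As 45 of the 60 bins of the stretch were called in that model, the counts by role restate the bin result, and 0 bins were called without MMTV-HRas tumor 2 or with normexp. Among cell cycle genes 4 of 5 lay in higher bins. Cul1, a scaffold of ubiquitin ligases, averaged 0.55 ± 0.39 in MMTV-HRas tumors, and Gadd45a, a p53 target induced by DNA damage, 0.43 ± 0.36. In p53-/- tumors, where no bin of a listed gene passed, Gadd45a stood at -0.25 ± 0.26. Its 1 probe was also low in MMTV-Wnt1 (-0.32 ± 0.22), MMTV-PyMT (-0.23 ± 0.23) and MMTV-Her2/neu tumors (-0.16 ± 0.27). It stood at -0.02 in MMTV-Myc, 0.16 in C3(1)-Tag and 0.20 in BRCA1-/-;p53+/- tumors. A low value was thus not particular to p53-/- tumors.

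Of the chromatin genes, 6 of 7 lay in bins higher in MMTV-HRas tumors. Ezh2 stood at 0.67, 0.61, -0.29, 1.14 and 0.06 in these tumors, a mean of 0.44 ± 0.56. The gained tumor 5 thus stood at 0.06 at the 2 Ezh2 probes, against 0.41 for its segment. Ezh2 was also raised in other models, at 0.47 ± 0.35 in p53-/- tumors and 0.35 ± 0.20 in MMTV-Her2/neu tumors. In MMTV-Myc tumors, of which none was gained, it stood at 0.26 ± 0.08. Means of the remaining models were 0.09 to 0.24, and 26 tumors reached 0.2 at Ezh2. Kdm7a, a histone demethylase, averaged 0.56 ± 0.33 in MMTV-HRas tumors.

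Of the receptors and ligands, 5 of 7 in a tested bin lay in higher bins. Smo averaged 0.44 ± 0.28 in MMTV-HRas tumors, the same mean as in BRCA1-/-;p53+/- tumors (0.44 ± 0.26), and 0.11 ± 0.35 in p53-/- tumors. Ptn encodes pleiotrophin, a secreted growth factor. Its probes stood at -0.42, -0.07, -0.94, -0.86 and 0.13 in BRCA1-/-;p53+/- tumors, below 0 in 4 of 5 although 4 of 5 were gained. Both Ptn probes were called as single probes off their segment in that model (differences -0.69 and -0.51, adjusted p = 0.0105 and 0.0215 in limma), so these values are not the level of the segment. In p53-/- tumors Ptn stood at 0.29, 0.03, -0.11, 0.29, -0.41 and 3.54, and only tumor 6 was far above the rest.

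Of the homeobox genes 12 of 13 lay in higher bins, 11 of them Hoxa genes or Evx1 packed into the bin at 52 to 53 Mb, so that they share 1 bin and 1 result. Hoxa9 averaged 0.45 ± 0.38 in MMTV-HRas tumors and 0.51 ± 0.32 in BRCA1-/-;p53+/- tumors. Probes of the cluster differed. Hoxa2 averaged 0.98 ± 0.44 and Hoxa13 -0.24 ± 0.29 in the same p53-/- tumors, and the Hoxa2 probe was one of those called as single probes off their segment in that model.

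Of 18 other cancer or mammary genes, 15 lay in bins higher in MMTV-HRas tumors. Abcg2, a drug efflux pump, averaged 0.36 ± 0.37 there. Of 9 lymphocyte genes, all 9 did, 8 of them Gimap genes, GTPases of lymphocytes that share the bin at 48 to 49 Mb. Over all 59 genes, 1 lay in the bin higher in Brca1-deleted tumors, namely Aqp1, and 0 in the other models.

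Values at the microRNA loci are means over few probes, and differences between loci or models were not tested. Around miR-183, miR-96 and miR-182, between Nrf1 and Ube2h, the 4 probes stood at 0.25, 0.73, 0.08, 0.87 and 0.42 in MMTV-HRas tumors and at 0.80, 0.42, 0.27, 0.54 and 0.07 in BRCA1-/-;p53+/- tumors. In p53-/- tumors they stood at 0.11, 0.28, 0.18, -0.21, -0.28 and 0.44. At miR-335, inside Mest, the p53-/- tumors stood at 0.60, 1.06, 1.06, 0.82, -0.19 and 0.71, so tumor 4 was raised at miR-335 and below 0 at the miR-183 cluster. Among the 6 probes at miR-335, those of Tsga14 and Copg2 were also called as single probes off their segment in p53-/- tumors. They stood at 2.17 and 1.53 in tumor 2, 2.27 and 1.52 in tumor 3 and 1.24 and 1.27 in tumor 4. In each of tumors 2 and 3 a single segment, at 0.41 and 0.38, spanned both loci, so their values at miR-335 are not the level of the segment. The flanks of miR-29a and miR-29b averaged 0.50 ± 0.30 in MMTV-HRas tumors, those of miR-148a 0.41 ± 0.44 and those of miR-196b, between Hoxa9 and Hoxa10, 0.45 ± 0.33. At miR-490, the Chrm2 probe, whose gene holds it, stood at 4.60 in p53-/- tumor 6. The flanks of miR-6370, probes of Ankrd7 and Kcnd2 on the distal side of Met, stood at 2.48, 0.81, 0.84, 2.21, 4.02 and 0.44 in p53-/- tumors. These are means over a span of 2713 kb and not the level at miR-6370 itself, since in tumor 4 the Ankrd7 probes, printed on the array as 4930532L20Rik, stood at 5.34 and 5.15. The same flanks averaged 0.36 ± 0.34 in MMTV-HRas tumors and -0.03 ± 0.19 in Brca1-deleted tumors.

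Breakpoints were unevenly spread over the models. A breakpoint was a boundary between neighbouring segments whose means differed by at least 0.2. In all, 115 were found in 23 tumors outside the Met window, and a further 9 lay inside it. The 6 p53-/- tumors held 51 (2 to 15 a tumor) and the 5 BRCA1-/-;p53+/- tumors 31 (0 to 13), against 11 in MMTV-Her2/neu, 9 in MMTV-PyMT, 9 in MMTV-Wnt1, 2 in C3(1)-Tag, 2 in MMTV-HRas and 0 in MMTV-Myc tumors. The difference between models was not tested. Steps of at least 1 numbered 25, in 9 tumors. The number depended on single probes. After each probe more than 4 SD beyond all of the 10 probes on each side was set to the nearest of them, a setting chosen after the data were seen, 86 were left, 39, 31 and 16 in p53-/-, Brca1-deleted and other tumors.

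**Figure D4:**
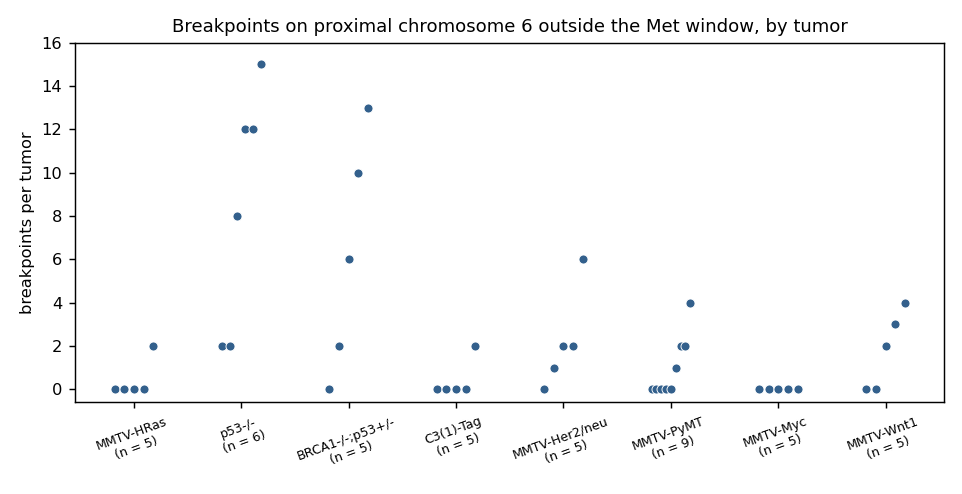
Number of breakpoints on proximal chromosome 6 outside the Met window in each tumor (points), by model. The p53-/- tumors hold 51 of the 115 and MMTV-Myc tumors hold 0.

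Small peaks, segments of at most 5 Mb that stood at least 0.3 above both neighbours, numbered 30 in 14 tumors, and dips of the same kind 24 in 12 tumors. Of the 30 peaks 17 were in p53-/- and 7 in BRCA1-/-;p53+/- tumors, and of the 24 dips 10 and 7. A dip is defined by its neighbours and need not be a loss. Some lay above 0 between higher segments, such as those at 0.34 and 0.37 in p53-/- tumor 6 and at 0.43 in p53-/- tumor 1. Likewise the peak of MMTV-Her2/neu tumor 2 lay at 0.06 between 2 dips. Without their most extreme probe, 23 peaks and 17 dips still met the definition. Of the 22 with only 5 probes 10 did. The peaks of several probes follow, and those carried by 1 probe come after them.

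The highest peaks outside the Met amplicon were in p53-/- tumor 6. Between 36375629 and 36988755, 11 probes averaged 4.44, among them Chrm2, a muscarinic acetylcholine receptor gene that holds miR-490 (4.60), and Ptn (3.38 and 3.69). Between 50032007 and 50210558, 7 probes averaged 4.95, with Mpp6, a scaffold protein gene, at 5.89 and 4.24, and Gsdme, a gasdermin gene printed on the array as Dfna5h, at 5.02 and 5.20. Between 53522330 and 53794696, 6 probes averaged 4.78, with Creb5, a transcription factor gene, at 4.94 and 5.50. The long segments between them lay at 0.36, 0.37 and 0.45, so that the 3 peaks stood separately on a gained chromosome. Over the same probes the highest median in any other tumor was 0.73, 0.76 and 0.79.

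**Figure D5:**
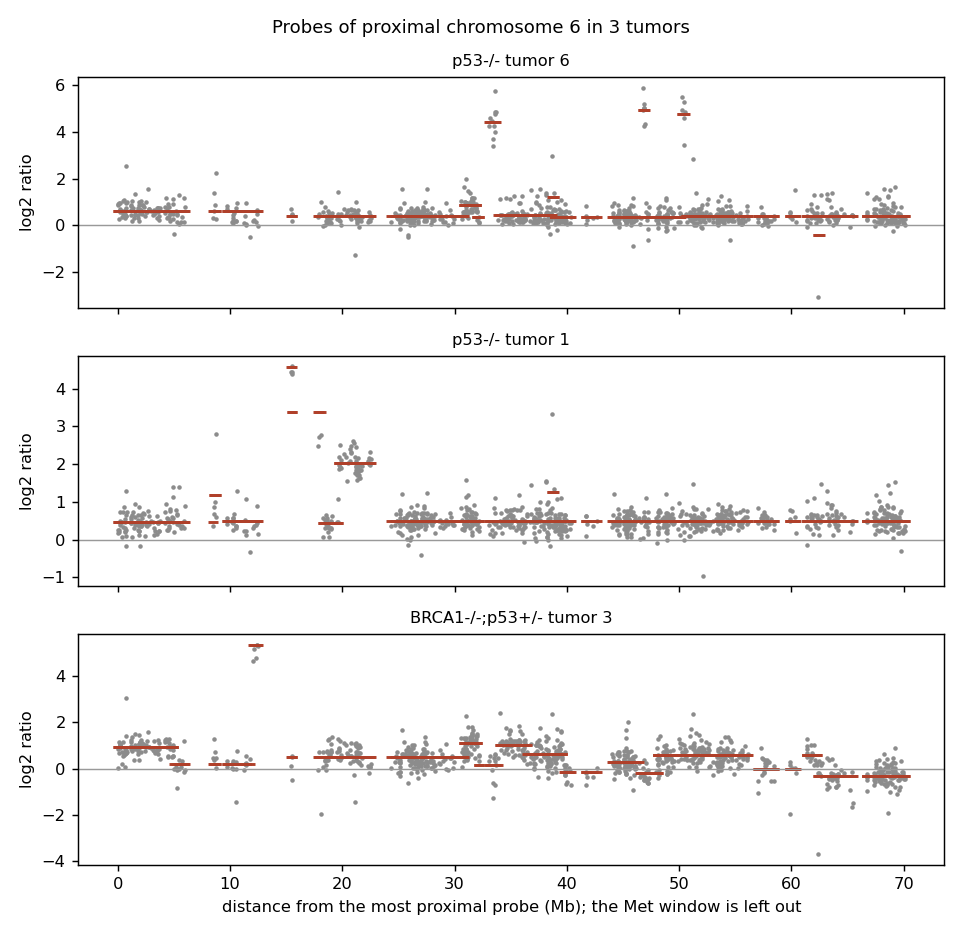
Log2 ratio of each probe of proximal chromosome 6, by distance from the most proximal probe, with segment means as lines, in p53-/- tumor 6, p53-/- tumor 1 and BRCA1-/-;p53+/- tumor 3. Tumor 6 shows 3 separate peaks of 4.44, 4.95 and 4.78, tumor 1 a peak of 2.03, and the last tumor steps between -0.31 and 1.12 outside the Met flank.

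In p53-/- tumor 1 a peak of 47 probes between 22956507 and 25797893 averaged 2.03. It held Aass, Cadps2, Slc13a1, Wasl, an activator of actin assembly, the hyaluronidase genes Hyal4, Hyal5 and Spam1, and Pot1a, a telomere protein gene. Pot1a stood at 2.15 in tumor 1 and at 0.06, 0.03, 0.02, -0.18 and 0.33 in the other 5 p53-/- tumors. Between this peak and the amplified distal flank of Met, which reached 21393403 at 3.39, 22 probes lay at 0.43.

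The flanks of the Met amplicon were raised in several tumors. In BRCA1-/-;p53+/- tumor 3 the amplified segment began at 15327864 (5.36) and in p53-/- tumor 4 at the same probe (5.40), next to a boundary that both share. Mdfic, a regulator of MyoD family factors, stood at 5.34 and 5.49 in these 2 tumors, at 1.1 in MMTV-Wnt1 tumor 1 and at 0.86 or below in the other 42. Foxp2, a forkhead transcription factor gene with probes on both sides of that boundary, stood at 2.55 and 1.88. In p53-/- tumor 5, whose mean over the stretch was -0.08, the amplified segments ran from 16724617 to 21715018 at 3.59 to 4.86.

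In p53-/- tumor 4 gained and ungained segments alternated. A segment from 25797834 to 29820384, with Smo, Irf5 and Calu, averaged 0.57. The next 14 probes, from 29860398 to 30323564, around the miR-183 cluster, averaged -0.15. From 30339013 to 31067885, with the carboxypeptidase genes and the imprinted gene Mest, the mean was 0.64. Another 5 probes from 36988696 to 37411503 averaged 0.95, and Creb3l2, a transcription factor gene at the end of that segment, stood at 1.35.

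BRCA1-/-;p53+/- tumor 3 rose and fell in the same way. From 34086331 to 35298467 it stood at 1.12, and p53-/- tumor 6 stood at 0.86 from the same first probe to 35227594. This segment holds the aldo-keto reductase genes Akr1b3, Akr1b8 and Akr1b7 and ends beyond Cald1, a gene of an actin-binding protein. From 35427781 to 37161516 the former fell to 0.16, across the Ptn and Chrm2 probes amplified in p53-/- tumor 6. From 37282182 to 39731610, with Creb3l2 (1.76) and Kdm7a (1.41), it stood at 1.04. Dips at 43044203 to 45921537 and at 49753910 to 51379704 lay at -0.16 and -0.17.

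BRCA1-/-;p53+/- tumor 1 had shallower steps, with 62 probes from 29526714 to 31955003 at 0.70 and 16 probes from 40423627 to 40964931 at 0.74 on a background of 0.34 to 0.42. Tumor 4 of that model, in contrast, held 1 segment of 0.41 over the whole stretch. MMTV-HRas tumors 1, 2, 3 and 5 also held no boundary in the stretch.

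Of 87 positions of the 115 breakpoints, 16 were used by more than 1 tumor. Within 1 Mb of a breakpoint in another tumor lay 109 of the 115. With so many breakpoints on the stretch, most can lie that close by density alone, and this was not tested. The most shared position, between 65556735 and 65601626, was used by 6 tumors. In 5 of these it was the left edge of a dip of 5 probes, and none of the 5 dips met the definition without its first probe, at 65601626, named A930038C07Rik. That probe stood at -1.96, -3.66 and -3.48 in MMTV-Her2/neu tumors 1, 2 and 5 and at -2.98 and -3.07 in p53-/- tumors 5 and 6. It also stood at -3.69 in BRCA1-/-;p53+/- tumor 3, where the gain ended at the same position, at -3.03 in MMTV-HRas tumor 3, at -2.65 in p53-/- tumor 4 and at -2.12 in MMTV-PyMT tumor 5. Values this low thus occurred in 5 models, and in the 5 dips the other 4 probes averaged between -0.23 and 0.25.

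At 41925807 to 42142456, p53-/- tumors 1 and 5 had peaks of 1.25 and 0.67, and tumor 6 had one of 1.21 that began at 41971832. The highest probe of all 3 was named for Sva, and without it the means were 0.73, 0.18 and 0.77. At 11855119 to 12046236 tumors 1 and 5 had peaks of 1.18 and 1.56, highest at the probe AK003209 (2.79 and 3.29). Its values in p53-/- tumors 2, 3, 4 and 6 were -0.02, 0.15, 1.22 and 2.26.

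MMTV-Her2/neu tumor 2 held a dip of 5 probes from 47887229 to 47953974 that averaged -1.43 and -1.05 without its lowest probe. The lowest median of these probes in the other 44 tumors was -0.29.

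Single probes that departed from their own segment were compared between models. In p53-/- tumors 48 of the 1021 probes did so by at least 0.5 (limma, adjusted p under 0.05 over 40666 probes), 45 higher and 3 lower, which is 4.70% against 6.68% of all probes. In BRCA1-/-;p53+/- tumors 23 did, 8 higher and 15 lower, against 2.73% of all probes. MMTV-HRas tumors had 3, all lower, against 0.224% of all probes, and MMTV-Wnt1 tumors 2, both higher, against 0.241%. In the first 2 of these models the share was therefore below that of all probes. Without p53-/- tumors 2 and 3, the arrays with like profiles, 15 probes were called in p53-/- tumors, of which 10 were among the 48, against 3.98% of all probes, so the count fell over the genome as well.

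C3(1)-Tag, MMTV-Her2/neu, MMTV-Myc and MMTV-PyMT tumors had 0 such probes in limma, against 0%, 0.00984%, 0.00492% and 0.00738% of all probes. At an unadjusted p under 0.05 and with no limit on size they had 75, 33, 88 and 160, against 8.84%, 3.9%, 9.18% and 13.3% of all probes.

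The largest difference was at the Sva probe at 41971832, named for the seminal vesicle antigen gene. It stood at 3.33, 3.67, 1.36, 2.78, 2.61 and 2.96 in p53-/- tumors, and outside the 2 Cre models the highest tumor was MMTV-Myc tumor 1 at 1.26. BRCA1-/-;p53+/- tumors 3 and 4 reached the range of the p53-/- tumors, at 2.38 and 3.07. Off its segment it was 1.92 higher in p53-/- tumors than in the mean of the other models (SE 0.29, adjusted p = 8.13e-06).

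The next were probes of Scrn1, a secernin gene (difference 1.64, adjusted p = 0.0005), Bet1, a gene of vesicle transport (1.48, adjusted p = 0.00468), and 2310005E10Rik, the aldo-keto reductase gene Akr1b10 (1.20, adjusted p = 3.1e-05), all higher in p53-/- tumors in limma. Tumors of other models overlapped with them. The Bet1 probe stood at 0.79 to 3.21 in p53-/- tumors, at 3.07 and 2.55 in Brca1-deleted tumors 3 and 4 and at 2.39 in MMTV-PyMT tumor 5. The Scrn1 probe stood at 0.53 to 3.44 in p53-/- tumors and at 2.53 in MMTV-PyMT tumor 5. Among the p53-/- tumors, the highest values at both probes were in tumors 2 and 3 (Scrn1 3.44 and 3.07, Bet1 3.21 and 2.95). These are the pair of arrays with r = 0.932, whose single-probe SDs were 0.448 and 0.476. Without this pair, a setting chosen after the data were seen, both probes lost their call in limma, with differences of 1.17 (adjusted p = 0.0606) and 1.06 (adjusted p = 0.214). The Sva (1.89) and 2310005E10Rik (1.17) probes kept theirs. The 2310005E10Rik probe at 34317119 stood at 1.59, 1.68, 1.64, 1.6, 0.95 and 2.01 in p53-/- tumors, and at 2.26 in Brca1-deleted tumor 3, above all 6. The second probe of the same gene, at 34319199, lay between -0.11 and 0.68 in them. A high value at 1 probe thus did not extend to the other probe of the same gene.

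In Brca1-deleted tumors the largest difference was a lower one, at a probe named only by its position, which starts at 63117150. It stood at 0.23, -0.32, -1.97, -1.64 and -1.37 in these tumors (difference off the segment -1.12, adjusted p = 0.0020 in limma). The Gimap3 probe stood at 1.20, 0.68, 2.02, 3.17 and -0.31 in the same tumors, a difference of 1.1.

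The antigen receptor genes Trb (40 to 42 Mb) and Igk (67 to 71 Mb) lie in the stretch, and lymphocytes delete parts of them when they rearrange. Departures of a bin from its local baseline that tumors of all models share were tested with limma. Of 60 bins 2 passed above their baseline at a size of at least 0.1, at 11 to 12 Mb (0.10, SE 0.03, adjusted p = 0.00607, above 0 in 30 of 45 tumors) and at 18 to 19 Mb (0.38, SE 0.13, adjusted p = 0.0186, above 0 in 35), against 1.26% of all bins called higher by the same rule. In these 2 bins the median tumor stood at 0.03 and 0.13 and the highest at 1.26 and 5.15. Only 6 and 9 tumors reached 0.3. Both are the bins raised in p53-/- tumors, and the second is the flank of Met. Neither lay in the Trb or Igk windows, where the departures were -0.02 to 0.05. At an unadjusted p under 0.05 and with no limit on size, 16 bins passed in limma, against 44.6% of all bins, and 2 of them lay in these windows. These were the bin at 40 to 41 Mb in the Trb window (0.02, adjusted p = 0.111 in limma) and the bin at 67 to 68 Mb in the Igk window (0.05, adjusted p = 0.00949 in limma).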

How the data were processed

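DNA of 45 mammary tumors was hybridized with reference DNA on 2-colour Agilent CGH arrays, and probe positions are those of mm8. Per the file headers, the authors' scanner software (Feature Extraction 9.5.1.1, although the labels' tools name 10.7) gave background-subtracted, dye-normalized processed signal intensities, and mean and background intensities from which the normexp alternative was made. The deposited log10 ratio is that of processed Cy5 over Cy3. It was turned to log2 of Cy3 over Cy5 and shifted so that the median autosomal probe of an array is 0, with outlier spots left out and spots of 1 probe averaged. The authors' interval table gives the mean log2 ratio of altered intervals per tumor, called with ADM-2, and was used as an alternative for the count of gains. Tables of intervals per model hold the authors' own comparisons and were not used.

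Each chromosome was cut by circular binary segmentation, splitting where the statistic passed 6 into segments of 5 probes or more, and segments of at least 0.2 or at most -0.2 counted as gained or lost. Tumor means were compared with 2-sided exact permutation tests, and bins of 1 Mb with at least 3 probes, local departures (10 bins on each side) and probes off their segments with limma, each with Benjamini-Hochberg adjustment. Python 3.11.15, numpy 2.4.6, scipy 1.17.1, R 4.3.3 and limma 3.58.1 were used, and the steps were tested on simulated data. Between 0 and 42 probes of the stretch lacked a value on an array. The number of arrays limits the precision, and the intervals on shares of tumors cover counting error only.

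The probes, gene lists and tests were chosen with earlier results of these data known. Named were listed genes by role, the strongest called bin of each model, the extreme probe of each small peak or dip, the 5 isolated probes with the largest differences, and microRNAs of the stretch. Other genes of the segments described were named after their values were seen. Of the 496 gene or transcript names, 335 matched a RefSeq symbol. Alternatives changed the centring, background correction, spot filter, segmentation, bin size and model, dye direction, arrays with like profiles, slides and single tumors. Not every listed gene or small segment is described here.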

Additional observations from a re-analysis of the deposited data

Results flagged for a closer look

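Of 16 groups of tumors tested for a single value far from the rest (8 models, by the mean and by proximal minus distal chromosome 6), 6 held one, where chance gives about 1 in 20. By the mean log2 ratio of proximal chromosome 6, BRCA1-/-;p53+/- tumor 5 was low at 0.0195, against 0.35 to 0.47 in the other 4. C3(1)-Tag tumor 5 was high at 0.57, against -0.05 to 0.08. MMTV-Her2/neu tumor 1 was high at 0.35, against -0.01 to 0.08. MMTV-PyMT tumor 7 was high at 0.47, against -0.04 to 0.04. The array labelled MMTV-Wnt1 tumor 1, which lacked the raised Wnt1 probe, was low at -0.18, against 0.01 to 0.03. By proximal minus distal chromosome 6, C3(1)-Tag tumor 4 stood at -0.62, against -0.01 to 0.11, and its profile over all bins resembled that of MMTV-Her2/neu tumor 3.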

How the results depend on the processing

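Of the results that answer a comparison, 948 values under an alternative kept their direction and side of the threshold, 7 lost a call, 2 gained one, 19 counts moved by over 1.5 times and 46 changed sign. Where no cause is named, the cause was not tested. For single genes, bins and probes 898 kept their call, 3 lost it and 63 moved. The difference of MMTV-HRas in the mean lost its call centred on the density peak (0.37), with normexp (0.17) and without the 4 C3(1)-Tag and MMTV-Her2/neu arrays with like profiles (0.32). Without these arrays C3(1)-Tag changed sign to 0.0360. With the dyes as labelled every sign turns by construction, to -0.18 in BRCA1-/-;p53+/-, 0.0377 in C3(1)-Tag, 0.0702 in MMTV-Her2/neu, -0.33 in MMTV-HRas, 0.19 in MMTV-Myc, 0.14 in MMTV-PyMT, 0.21 in MMTV-Wnt1 and -0.20 in p53-/-, and 0 tumors are gained. Within shared slides MMTV-Her2/neu was 0.10, MMTV-PyMT 0.0309 and MMTV-Wnt1 0.0372, turned in sign.

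Differences in proximal minus distal that turned were uncalled. They were, with normexp, MMTV-Myc 0.00163 and MMTV-Wnt1 0.00281, with only spots well above background MMTV-Myc 0.00130, without the like arrays C3(1)-Tag 0.00435, MMTV-HRas -0.0321 and MMTV-PyMT -0.0187, and by the median over probes C3(1)-Tag 0.0664, MMTV-HRas -0.0380 and MMTV-PyMT -0.0276.

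Breakpoints, and small peaks and dips, numbered 56 and 26 with normexp, 183 and 85 with a split statistic over 5, and 60 and 26 over 8, with 34 peaks and dips at 10 probes a segment. Capping single extreme probes, chosen after seeing the data, left 86 breakpoints, 21 peaks and 15 dips. Called bins, 48 over all models, were 9 with normexp, 31 in bins of 2 Mb and 128 with array weights. Local departures, 2 bins, were 1 with normexp, 4 without the like arrays and 4 with a baseline of 5 bins. Isolated probes, 76, were 8 at a size of at least 1 and, chosen after seeing the data, 48 without p53-/- tumors 2 and 3.

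With 1 tumor left out at a time, called bins ranged from 5 without MMTV-HRas tumor 2 to 61 without C3(1)-Tag tumor 5, with 11 without MMTV-HRas tumor 4 and 29 without tumor 5. The mean difference ranged from -0.15 to 0.00848 in C3(1)-Tag, from 0.24 to 0.45 in MMTV-HRas (adjusted p 0.00471 to 0.125 in the exact permutation test, above the threshold without tumor 1, 2, 4 or 5) and from 0.15 to 0.28 in p53-/-. Proximal minus distal ranged from -0.17 to 0.00626 in C3(1)-Tag, 0.0631 to 0.27 in BRCA1-/-;p53+/-, -0.0118 to 0.0223 in MMTV-HRas, -0.31 to -0.14 in MMTV-Her2/neu, -0.0164 to 0.0176 in MMTV-Myc and -0.0292 to 0.00484 in MMTV-Wnt1. No paired analysis was possible because the tumor numbers follow the order of deposit and tie no tumors of different models to each other. Signals as low as 2.09 times background limit what single probes show.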
